A study of Mus musculus with 4 samples.

Results

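Among the eGFP cells of the aortic arch, 879 of 8031 (10.9%, exact binomial 95% interval 10.3 to 11.6) carried at least 5 UMIs, summed, of 5 genes: Adamtsl1, Prss12, Dlx5, Dlx6 and Tfap2b. A UMI (unique molecular identifier) marks 1 captured transcript. The 5 genes are called the rule genes here, their sum the score, and the 879 cells the high-score cells. They were set against the 6559 cells of the same library with a score of 0 or 1, the low-score cells, and the 593 cells with a score of 2 to 4 were kept apart. Cells needed 1000 or more detected genes and no more than 10% of UMIs from mitochondrial genes, and 21429 in the whole series met this. The cells were chosen by their measured counts of these 5 genes, so the levels of the rule genes and every difference between high-score and low-score cells below are descriptions of 1 library. They carry no test, and no difference has a replicate check.

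The animals carried Wnt1-Cre2 and mT/mG and were 12 weeks old. In them a Cre recombinase expressed from a Wnt1 promoter switches a membrane reporter from tdTomato to eGFP in neural crest cells and their descendants. Cells were sorted for ITGA8, an integrin subunit of smooth muscle cells (SMCs), and for reporter colour, into 1 library each of the aortic root (Root), the arch for eGFP (Arch-GFP) and the ascending aorta for eGFP (Asc-GFP) and for tdTomato (Asc-RFP). All 4 groups shared the strain and the age and no group was given an agent, so the high-score cells have no treated or mutant counterpart. The eGFP reports Cre activity at any earlier time, and the labels do not state how many animals were pooled per library.

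Dlx5 and Dlx6 are neighbouring homeobox genes that pattern the pharyngeal arches, the embryonic bulges from which the face, neck and great arteries form. Tfap2b encodes AP-2 beta, a transcription factor of neural crest cells that is needed for the ductus arteriosus, the fetal vessel between the pulmonary artery and the aortic arch, to close after birth. Prss12 encodes a secreted serine protease (neurotrypsin) and Adamtsl1 a secreted matrix protein that resembles ADAMTS proteases but lacks their catalytic domain. The smooth muscle of the arch and its branches descends largely from neural crest that migrated through the pharyngeal arches.

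Promoter windows of 3 genes are printed here because they belong to the genes on which the description turns: Hhip, the measured gene with the largest ratio in the high-score cells, and Fbln1 and Rgs5, which with it are the leading marker genes of these cells outside the rule. Each runs from 250 bases before to 50 after an annotated start site, 5′ to 3′ on the strand of the gene, from RefSeq on GRCm38.p6, the assembly called mm10. Capitals mark matches to the AP-2 motif GCCNNNGGC, which reads the same on both strands, or to the homeodomain motif TAATTG on either strand. The Hhip window is chr8:80057959-80058258 on the minus strand, the Fbln1 window is chr15:85205758-85206057 on the plus strand, and the Rgs5 window is chr1:169655251-169655550 on the plus strand.
Hhip: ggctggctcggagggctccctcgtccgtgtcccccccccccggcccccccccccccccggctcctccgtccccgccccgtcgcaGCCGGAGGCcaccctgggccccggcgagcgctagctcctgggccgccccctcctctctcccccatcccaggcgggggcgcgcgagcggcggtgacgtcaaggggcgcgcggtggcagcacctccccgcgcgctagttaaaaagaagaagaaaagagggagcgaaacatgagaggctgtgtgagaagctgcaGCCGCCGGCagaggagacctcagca
Fbln1: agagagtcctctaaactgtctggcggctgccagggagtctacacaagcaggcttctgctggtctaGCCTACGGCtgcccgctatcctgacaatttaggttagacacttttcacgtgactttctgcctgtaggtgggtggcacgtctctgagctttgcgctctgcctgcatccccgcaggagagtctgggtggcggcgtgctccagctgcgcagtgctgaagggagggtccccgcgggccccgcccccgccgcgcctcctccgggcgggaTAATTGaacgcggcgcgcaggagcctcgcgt
Rgs5: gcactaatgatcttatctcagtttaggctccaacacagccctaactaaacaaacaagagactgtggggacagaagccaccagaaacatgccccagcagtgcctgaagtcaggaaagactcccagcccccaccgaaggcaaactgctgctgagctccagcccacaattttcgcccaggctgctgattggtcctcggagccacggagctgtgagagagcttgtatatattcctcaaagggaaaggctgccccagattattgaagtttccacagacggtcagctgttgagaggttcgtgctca

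The Hhip window held 2 AP-2 matches, the first 166 bases before the start site. The printed Fbln1 window, of 2 in the table, held an AP-2 match 185 bases before its start site and a homeodomain match 19 bases after it. The other Fbln1 window, chr15:85205699-85205998, overlaps it and held the same AP-2 match, 126 bases before its own start site, and no homeodomain match. The Rgs5 window held neither motif. Among all 32851 windows in the table, 16.6% held the AP-2 motif and 8.0% the homeodomain motif. Of the 15 named genes highest in the high-score cells, 14 had an entry, with 22 windows. Of these windows 6 (27.3%), from 5 genes, held the AP-2 motif and 2 (9.09%) the homeodomain motif. Of the 10 lowest genes, 9 had an entry, with 10 windows. Of those windows 7 (70%), from 6 genes, held the AP-2 motif and 1 (10%) the homeodomain motif. The median GC content was 63.3% and 59% in these sets against 52.7% in all windows. The matches are letters in a window and show no binding.

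Few cells of the other libraries reached the bound. This restates the choice of the rule genes, which was made with these libraries known, and is no finding. A score of at least 5 was reached by 2 of 2960 cells in Root (0.0676%, 0.00818 to 0.244), 7 of 6408 in Asc-GFP (0.109%, 0.0439 to 0.225) and 3 of 4030 in Asc-RFP (0.0744%, 0.0154 to 0.217). Deep cells reach a sum of 5 more easily, so cells were also thinned to 10000 UMIs, which left out 2741 shallower cells of Arch-GFP, 622 of Root, 1661 of Asc-GFP and 866 of Asc-RFP. The share was then 9.75% in Arch-GFP, 0.0428% in Root, 0.0421% in Asc-GFP and 0% in Asc-RFP (0 of 3164, exact upper bound 0.117%). All intervals in this text are 95% intervals for counting error only. They leave out the spread between cells and between animals, which may be larger.

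**Figure D1:**
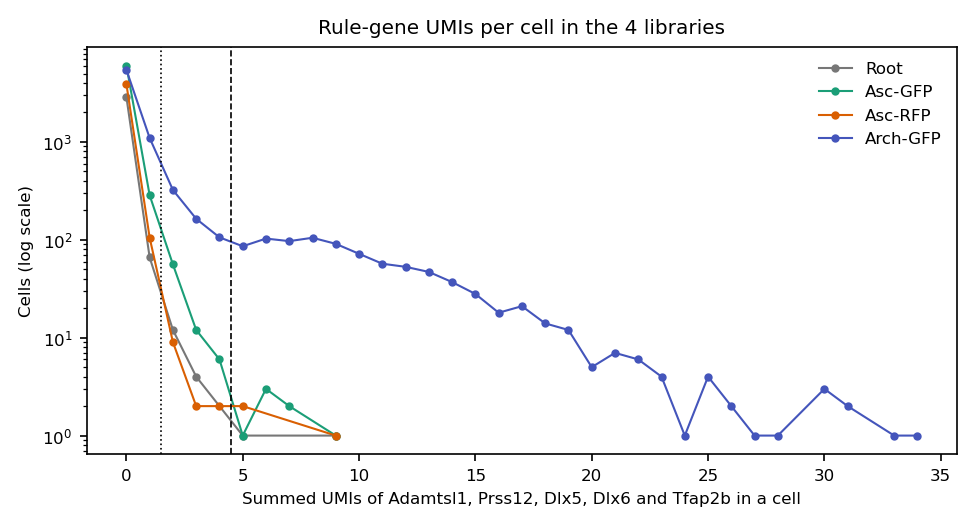
Number of cells (log axis) at each summed count of the 5 rule genes, 1 line per library, with a dashed line below the bound of 5 UMIs, a dotted line above the low-score cells, and sums with no cell left out. Arch-GFP alone has a long upper tail of 879 cells, with no gap at the bound (106 cells at 4 UMIs, 86 at 5 and 103 at 6).

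Within Arch-GFP the number of cells decreased from 5462 at a score of 0 to 1097, 323, 164 and 106 at scores of 1, 2, 3 and 4. It was 86 at a score of 5 and then 103, 97 and 105 at 6, 7 and 8. The counts thus show no gap at the bound, with 192 cells at scores of 4 or 5. The count at 5 was only slightly under those beside it. As the set is cut from a score, it is described as a range of that score and given no cell type name. For cells just outside it (score 3 to 4, 270 cells) and just inside it (5 to 6, 189 cells), Rgs5 stood at 888 and 1296 CPM (UMIs per 1000000 UMIs), Fbln1 at 91.3 and 170 CPM and the smooth muscle actin Acta2 at 18104 and 15944 CPM.

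Each rule gene was detected in part of the high-score cells. Adamtsl1 had a UMI in 95.3% of them, Prss12 in 77.7%, Dlx5 in 73.5%, Dlx6 in 70.8% and Tfap2b in 37.2%. All 5 were detected in 134 cells, 4 in 333, 3 in 297, 2 in 108 and 1 in 7. Adamtsl1 gave 43.1% of the rule-gene UMIs and Tfap2b 6.53%, so a high score rests more often on Adamtsl1 than on the transcription factors that describe the group. The levels in high-score and low-score cells, fixed by the rule, were 317 and 3.83 CPM for Adamtsl1, 161 and 3.08 CPM for Prss12, 104 and 3.61 CPM for Dlx5, 106 and 2.31 CPM for Dlx6 and 48.0 and 0.562 CPM for Tfap2b. In Asc-GFP, the other library of eGFP cells alone, they ranged from 0.0476 CPM (Tfap2b) to 2.58 CPM (Dlx5) over all cells.

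Each rule gene was also read with itself left out of the score. Cells with at least 5 UMIs of the other 4 genes were set against cells with none of them. Tfap2b then stood at 45.2 against 0.962 CPM (log2 ratio 5.56, 5.19 to 5.94), Adamtsl1 at 309 against 6.28 CPM (5.62, 5.48 to 5.77), Prss12 at 151 against 4.14 CPM (5.19), Dlx6 at 95.1 against 3.52 CPM (4.76) and Dlx5 at 96.6 against 5.46 CPM (4.14). The scores of these genes come from the same cells, so the values describe how they were distributed over this library. The rule genes were chosen with this library known, so high levels together restate that choice and are no finding. A rule on Adamtsl1 and Prss12 alone (at least 3 UMIs) took 858 cells, a rule on Dlx5, Dlx6 and Tfap2b alone took 652, and 473 cells met both, which is 55.1% of the first set and 72.5% of the second.

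High-score cells had a slightly lower median of UMIs and a higher median of detected genes than low-score cells. The medians were 12396 against 12811 UMIs and 3879 against 3574 detected genes per cell. Mitochondrial UMIs made up a median of 4.95% and 5.13%. The high-score cells were not the shallower set by other measures. They were 10.9% of the kept cells of the library and held 12.1% of the UMIs. Of the high-score cells 2 had fewer than 5000 UMIs, against 1137 of the low-score cells. The reporter eGFP stood at 3712 CPM (3678 to 3747) in high-score and 3844 CPM (3831 to 3858) in low-score cells, and tdTomato had no UMI in the former and 0.0366 CPM in the latter. The nuclear RNA Malat1 was higher, at 42759 CPM (42643 to 42875) against 32327 CPM (32288 to 32366), and its part in the ratios below was not tested. Itga8, the sorting antigen, was at 1702 and 1426 CPM. Of the cells with UMIs of either Xist or a Y-linked gene alone, 23.2% of the high-score and 29.996% of the low-score cells were female, and 10.9% and 9.71% of cells held both, which can mark doublets or free RNA. Of the barcode sequences of the high-score cells, 0, 1 and 2 also occurred in Root, Asc-GFP and Asc-RFP.

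The high-score cells carried the markers of smooth muscle. All 12 SMC markers were measured in them, with Acta2 at 12986 CPM, Tagln at 6494 CPM and Myh11, the smooth muscle myosin heavy chain, at 3365 CPM. Their summed level was 33848 CPM against 50945 CPM in the low-score cells and 48049 to 55319 CPM in the other libraries. Markers of several other cell types were near or at 0: macrophage markers summed to 2.38 CPM with 7 of 10 at 0, lymphocyte markers to 0.328 CPM with 6 of 8 at 0, glial markers to 4.27 CPM with 5 of 7 at 0 and erythrocyte markers were all at 0. Endothelial markers summed to 38.2 against 27.5 CPM in low-score cells, of which Pecam1 gave 36.2 and 26.1 CPM, and 6 of 10, Cdh5 and Kdr among them, were at 0. Fibroblast markers summed to 1230 against 1201 CPM with none at 0, but this sum held differences in both directions. Of 5 with a mean of at least 10 CPM over both sets, 3 were higher and 2 lower by a log2 ratio of at least 0.5. Col1a1 was at 737 against 474 CPM and Pdgfra at 17.7 against 4.74 CPM, while Dcn was at 5.01 against 15.2 CPM. Pericyte markers summed to 2416 against 709 CPM, most of it Rgs5, with Higd1b and Vtn at 0. Adipocyte markers summed to 169.6 against 215 CPM, nearly all of it Fabp4 (169.5 CPM), with 4 of 6 at 0. Chondrocyte markers summed to 77.8 against 52.7 CPM, of which Sox9 gave 51.2 and Acan 24.5 CPM, with Col2a1 and Matn3 at 0. Cardiomyocyte markers summed to 40.4 against 75.03 CPM, of which Ryr2 gave 30.1 CPM, with Myh6 and Nppa at 0, and melanocyte markers to 24.5 against 16.6 CPM, nearly all Mitf. Neuronal markers summed to 9.44 against 0.647 CPM, of which Stmn2 gave 8.46 CPM, with 4 of 8 at 0.

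Of 8167 genes with a mean of at least 10 CPM over both sets (the rule genes left out), 304 (3.72%) reached a 2-fold higher level in the high-score cells and 119 (1.46%) a 2-fold lower level. The median log2 ratio over these genes was 0.19. With that shift taken out by scaling to the median of the gene ratios, the counts were 237 higher and 180 lower. Log2 ratios below are of CPM, high-score over low-score, and a reader can subtract 0.19 to set a gene against the median gene. Of the genes past 2-fold, 273 of the 304 and 107 of the 119 were past it in cells with Xist UMIs alone and in cells with Y-linked UMIs alone. Those cells are part of the cells that gave the 304 and 119 genes, so this is a description.

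The measured gene with the largest ratio was Hhip (chr8:79965851-80058006, minus strand, mm10), which encodes a membrane protein that binds hedgehog ligands and limits their signal. It stood at 65.8 CPM (61.3 to 70.5) in high-score and 0.855 CPM (0.666 to 1.08) in low-score cells, a log2 ratio of 6.27 (5.91 to 6.64), and at 0.0504, 0.143 and 0.352 CPM in Root, Asc-GFP and Asc-RFP. With the score taken from Dlx5, Dlx6 and Tfap2b alone the ratio was 4.85. The high-score cells, with 12.1% of the UMIs of the library, held 86.1% of its Hhip UMIs. Grem1 (chr2:113746164-113758646, minus strand), a secreted antagonist of bone morphogenetic proteins (BMPs), followed at 24.96 CPM (22.2 to 27.9) against 0.342 CPM (0.227 to 0.494), a log2 ratio of 6.19 (5.63 to 6.80). It had 0 UMIs in Asc-GFP and Asc-RFP and stood at 0.0252 CPM in Root. Both thus had few UMIs in low-score cells and the other libraries, while the cells with scores of 2 to 4 lay between, at 8.53 CPM for Hhip and 1.73 CPM for Grem1.

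The other genes among the 15 highest were of several kinds. Matrix proteins were Coch (cochlin) at 38.1 against 0.586 CPM (6.02, 5.59 to 6.48), the testican Spock2 at 53.7 against 1.36 CPM (5.31) and Fbln1 (fibulin-1) at 246 against 9.28 CPM (4.73, 4.61 to 4.84). Cell adhesion proteins better known from neurons were Mdga2 at 63.4 against 1.12 CPM (5.82), Negr1 at 56.8 against 1.20 CPM (5.57) and Lrrtm3 at 82.1 against 2.21 CPM (5.22). Signalling proteins were the cyclic nucleotide phosphodiesterase Pde10a (5.61), the kinase Stk32a (5.58), the intracellular fibroblast growth factor homologue Fgf12 (5.29) and the lysophosphatidic acid receptor Lpar1 (5.05). The transcription factors were Tshz2 at 192 against 5.98 CPM (5.01, 4.87 to 5.15) and Msx2 at 53.8 against 1.76 CPM (4.93, 4.67 to 5.21).

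Dlx6os1 (chr6:6820189-6871592, minus strand), a long noncoding RNA, was at 59.0 against 2.08 CPM (4.83). It overlaps the rule gene Dlx6 (chr6:6863334-6868568, plus strand), and no source used here says whether counting used strand, so its value may hold reads of Dlx6. The low-score cells had 1.30 to 3.78% (median 2.52%) of the high-score level for these 15 genes. How much of that is free RNA in the droplets was not tested. Thinning to 5000 UMIs left out 2 high-score and 1137 low-score cells, and 167 of Root, 493 of Asc-GFP and 469 of Asc-RFP. Among the cells so thinned, 9.35 to 57.0% of high-score cells had a UMI of each of the 15 genes. The shares were 0.129 to 4.37% in low-score cells, up to 5.37% in Root, up to 1.52% in Asc-GFP and up to 2.81% in Asc-RFP, with Fbln1 highest in each of these sets but Asc-GFP, where it was Tshz2. Fbln1 in Root (16.3 CPM) was above its level in the low-score cells. The 15 genes are long, with a median of 111.1 kb from start to end against 25.6 kb for all measured genes, and 44.7 kb for the 304 higher and 27.0 kb for the 119 lower genes. Whether reads from introns were counted is not stated in those sources, and the part of gene length in these ratios was not tested.

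The 10 lowest genes kept 11.3 to 18.0% of the low-score level. The lowest was Flt1, a receptor for vascular endothelial growth factor, at 2.55 CPM (1.73 to 3.61) against 22.4 CPM (21.4 to 23.5), a log2 ratio of -3.14 (-3.70 to -2.63). Des, the muscle intermediate filament desmin, was at 4.27 against 31.3 CPM (-2.87, -3.30 to -2.48), and Igfbp5, a binding protein of insulin-like growth factors, at 4.02 against 29.4 CPM (-2.87). Wnt16, a Wnt ligand, was at 13.1 against 76.7 CPM (-2.54). Of higher level was Rbp4, the carrier of retinol, at 88.8 against 494 CPM (-2.48, -2.56 to -2.39). Bex4 (-2.83, and -4.45 without the deepest 5% of cells), the calcium-binding protein gene Tesc (-2.78), the secreted protein gene Tafa1 (-2.70) and the diacylglycerol kinase gene Dgkb (-2.61) were also in the group. All 25 genes had the same sign in cells with Xist UMIs alone and in cells with Y-linked UMIs alone. Those cells are part of the cells from which the 25 genes were picked, so this is no separate check.

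**Figure D2:**
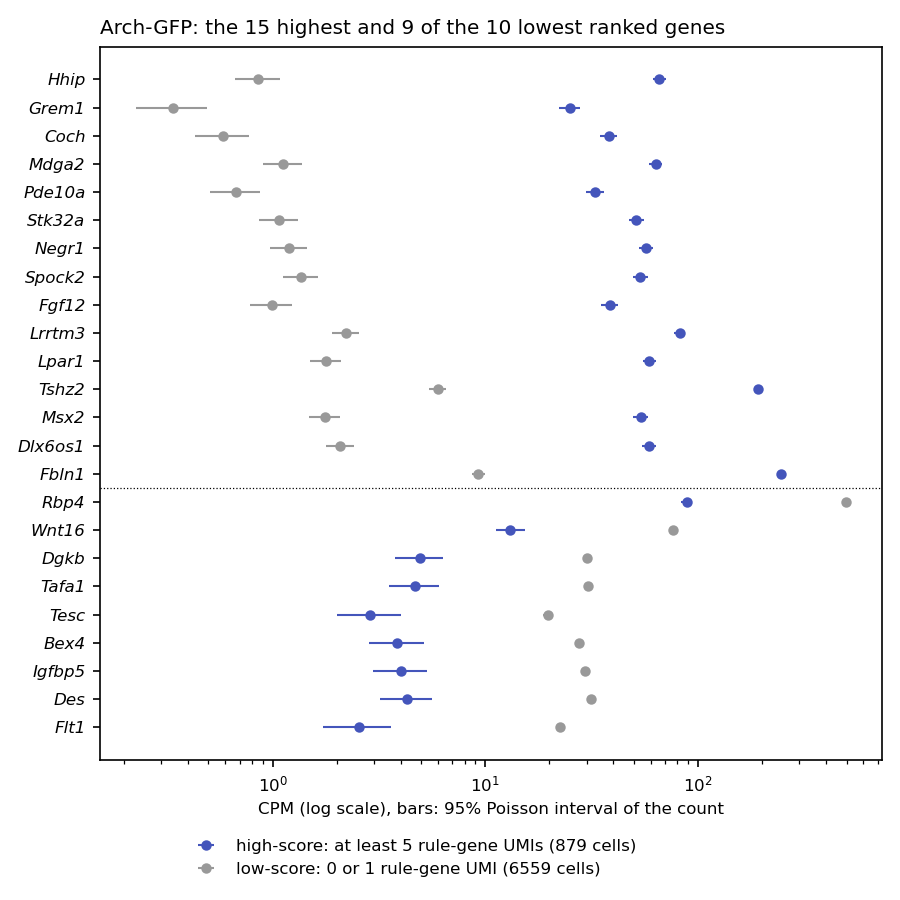
Levels of the 15 highest and 9 of the 10 lowest genes (CPM, log axis) in high-score and low-score cells of Arch-GFP, with exact Poisson 95% intervals and a dotted line between the groups of genes. The high-score cells range from Grem1 at 24.96 to Fbln1 at 246 CPM for the 15 highest genes, where the low-score cells lie at or under 9.28 CPM.

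Rgs5 (chr1:169655501-169695813, plus strand), a regulator that shortens G protein signals and a known marker of mural cells, followed the score most closely. Over the 8031 Arch-GFP cells its correlation with the score was 0.63 (Pearson, on the log of UMIs per 10000), ahead of Tshz2 (0.61), Fbln1 (0.58) and Prrx2 (0.58). Lrrtm3 (0.51), Lrrc17 (0.51), Lamc3 (0.50), Mfap5 (0.49), Crispld2 (0.49) and Mdga2 (0.49) came next. Likeness here is across cells of 1 library that share depth and free RNA, and is given as a description. Rgs5 stood at 1654 CPM (1631 to 1677) in high-score and 131 CPM (129 to 134) in low-score cells, a log2 ratio of 3.66 (3.62 to 3.69), and at 24.6, 101 and 115 CPM in Root, Asc-GFP and Asc-RFP.

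Single cells overlapped for all of these genes. Per 10000 UMIs, Rgs5 had a median of 13.7 in high-score cells (5th to 95th percentile 1.27 to 42.4) and 0.447 in low-score cells (0 to 6.55). The level was above the 95th percentile of the low-score cells in 77.0% of high-score cells. For Mfap5 the medians were 18.1 and 5.24 and this share was 66.7%, and for Acta2 the medians were 114 and 230, with 53.5% of high-score cells below the 5th percentile of the low-score cells. The eGFP medians were 36.6 and 39.2. Among cells thinned to 5000 UMIs, Rgs5 had a UMI in 92.9% of high-score, 31.5% of low-score, 19.5% of Asc-GFP and 6.48% of Root cells, and unthinned in 97.5% of high-score and 51.4% of low-score cells.

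Mean levels were graded along the score. A mean over a bin does not show whether the cells in it were alike. Rgs5 stood at 115, 218, 379 and 888 CPM in cells with scores of 0, 1, 2 and 3 to 4, and at 1296, 1439, 1935 and 2089 CPM with scores of 5 to 6, 7 to 9, 10 to 19 and at least 20. Acta2 decreased over the same steps, from 22807 CPM at a score of 0 to 9916 CPM in the 38 cells with at least 20. Rbp4 decreased from 499 to 41.7 CPM between these ends. Itga8 was at 1431 and 1891 CPM at the ends, and eGFP at 3835 and 3218 CPM.

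**Figure D3:**
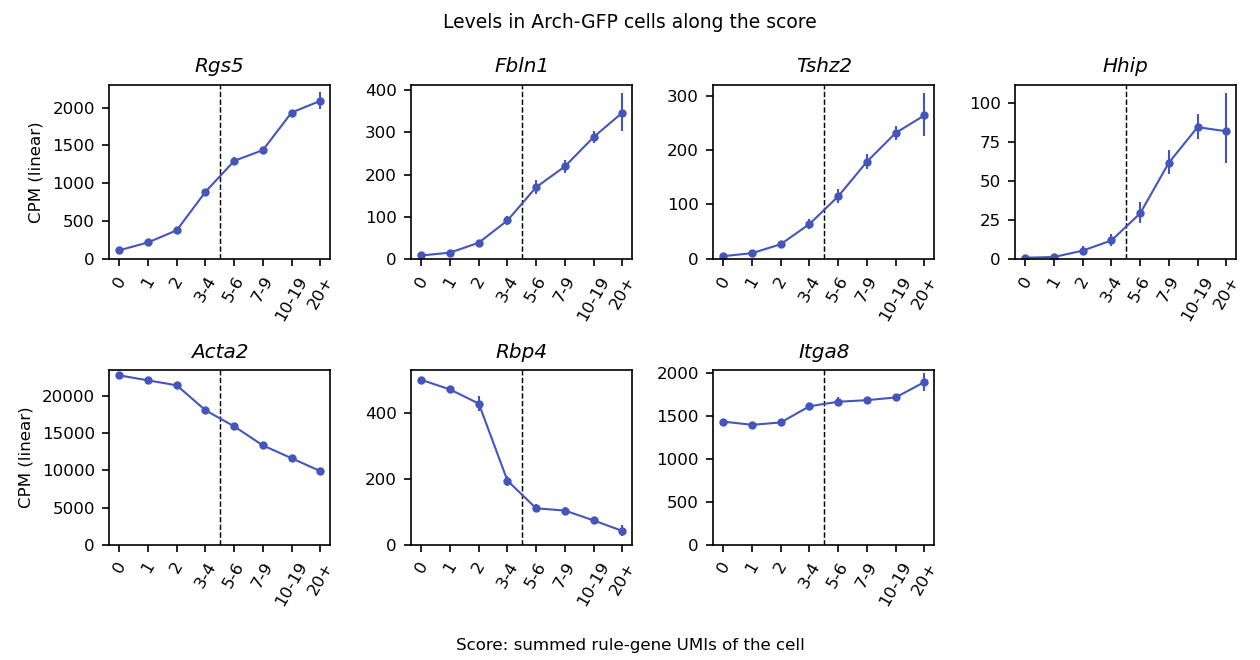
Level of 7 genes (CPM, linear axes from 0) in Arch-GFP cells binned by their summed rule-gene UMIs, with exact Poisson 95% intervals and a dashed line at the bound. Rgs5 is higher at each step from 115 to 2089 CPM and Acta2 is lower at each step from 22807 to 9916 CPM.

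The high-score cells also lay together when the rule genes were left out of the measure. Each cell was placed by 30 principal components of 2000 variable genes, and its 15 nearest neighbours were taken. Dlx6os1, which may hold reads of Dlx6, was not barred from the variable genes. Of the neighbours of high-score cells, 82.7% on average were high-score cells, and in 91.8% of high-score cells they made up most of the neighbours. The same held for 21.8% of the 593 cells between the bounds and for 11 of the 6559 low-score cells (0.168%). Of the 593 cells between the bounds, 319 had no high-score neighbour. Thinning to 8000 UMIs left out shallower cells and kept 808 high-score cells, 378 between the bounds and 4750 low-score cells. The shares with mostly high-score neighbours were then 88.9%, 25.1% and 0.0421%, with the score still taken from all UMIs. The 11 low-score cells of the unthinned measure had a median of 7308 UMIs against 12811 in all low-score cells. Their levels were 2117 CPM for Rgs5, 204 CPM for Tshz2 and 15684 CPM for Acta2. These genes were not barred from the variable genes, so such levels can follow from how the 11 cells were chosen and are no finding.

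**Figure D4:**
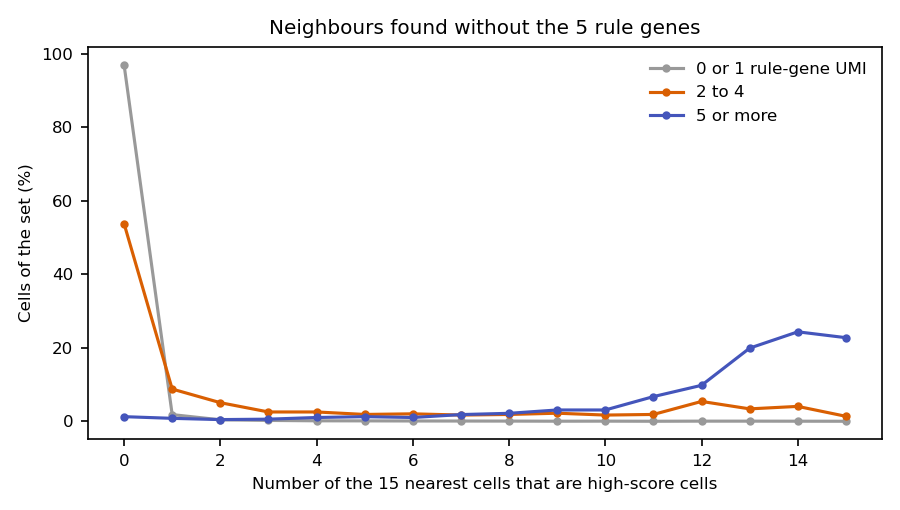
Percent of cells of each set (vertical axis) that have a given number of high-score cells among their 15 nearest neighbours (horizontal axis), with the rule genes left out of the distance and 1 line for each range of the score. Cells with a score of 0 or 1 had on average 0.466% high-score neighbours, cells with 2 to 4 had 21.8% and high-score cells had 82.7%.

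Lists of genes were then read by role. List members are called higher from a log2 ratio of 0.5 and lower from -0.5. Over all 8167 measured genes, 1134 (13.9%) were higher and 336 (4.11%) lower by this bound, or 621 and 556 relative to the median gene. For the lists below the count relative to the median gene is given after the count in CPM.

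Regulators of the pharyngeal arches and neural crest leaned upward. Of 19 measured, 12 were higher and 1 was lower (11 and 2 relative to the median gene), with a median log2 ratio of 0.95 against 0.19 over all genes. The higher ones include Dlx6os1, whose value may hold reads of the rule gene Dlx6. Beside Tshz2 and Msx2 stood the homeobox gene Prrx2 at 209 against 16.9 CPM (3.63, 3.53 to 3.72), the cartilage regulator Sox9 at 51.2 against 6.74 CPM (2.93) and the forkhead gene Foxf1 at 51.9 against 8.52 CPM (2.61). Msx1, the close relative of Msx2, was at 19.5 against 12.4 CPM (0.66). Hand2, a factor of the outflow tract and arches, was the lower member at 24.1 against 98.6 CPM (-2.03, -2.20 to -1.86). A further 10 of the 43 listed genes had no UMI in the high-score cells.

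Of 5 measured HOX genes, which encode position along the body axis, 3 were higher (2 relative to the median gene), Hoxa4 at 12.7 against 7.28 CPM (0.81) and Hoxa3 at 51.2 against 30.3 CPM (0.76) among them. Of 10 regulators of the cardiac and second heart field 1 was higher and 3 lower (1 and 4). Osr1 was higher at 718 against 205 CPM (1.81, 1.77 to 1.84). Hand2os1, the antisense neighbour of Hand2, was at 4.84 against 28.4 CPM (-2.55) and the troponin gene Tnnt2 at 6.24 against 21.8 CPM (-1.80).

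Contractile genes leaned downward. Of 32 measured, 9 were lower and 2 higher (13 and 0 relative to the median gene), with a median of -0.20. Acta2 was at 12986 against 22702 CPM (-0.81, -0.81 to -0.80), Tagln (transgelin) at 6494 against 11897 CPM (-0.87), Ppp1r14a, an inhibitor of myosin phosphatase, at 443 against 1131 CPM (-1.35) and Myh11 at 3365 against 4506 CPM (-0.42). Calponin (Cnn1) was at 1406 against 1469 CPM (-0.06). Tpm4, a tropomyosin gene, was 1 of the 2 higher members at 291 against 201.4 CPM (0.53).

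Elastic fibre genes and collagens leaned upward. Of 18 measured genes of elastic fibres and fibulins 13 were higher and 0 lower (10 and 0 relative to the median gene), with a median of 0.81. Elastin (Eln) was at 3896 against 2195 CPM (0.83, 0.81 to 0.84), and the microfibril genes Mfap5 at 1875 against 577 CPM (1.70, 1.68 to 1.72) and Mfap2 at 55.1 against 13.3 CPM (2.05). Fbln5, which helps assemble elastin, was at 1300 against 522 CPM (1.32), the latent TGF-beta binding protein gene Ltbp2 at 269 against 51.9 CPM (2.37) and Efemp1 (fibulin-3) at 22.9 against 1.93 CPM (3.57).

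Of 16 collagen chains 10 were higher and 0 lower (8 and 0 relative to the median gene), with a median of 0.72. Col14a1, which binds to the surface of collagen fibrils, was at 448 against 131 CPM (1.77), Col15a1 at 509 against 188 CPM (1.44), Col1a2 at 2430 against 1281 CPM (0.92) and Col6a1 at 394 against 182 CPM (1.12). Of 16 proteases and inhibitors of the ADAMTS, MMP and TIMP families 9 were higher and 2 lower (6 and 2), among them Mmp2 at 47.1 against 9.50 CPM (2.31) and Adamts5 at 22.9 against 48.2 CPM (-1.07).

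Proteoglycans were split. Of 17 measured, 4 were higher and 7 lower (3 and 8 relative to the median gene). The glypican Gpc3 at 154 against 12.7 CPM (3.597, 3.49 to 3.71), the large proteoglycan Vcan at 357 against 90.1 CPM (1.99) and Mia at 229 against 75.6 CPM (1.597) were higher. Small leucine-rich proteins were among the lower genes, with Aspn at 15.5 against 82.8 CPM (-2.41), Prelp at 113 against 362 CPM (-1.68) and Dcn (decorin) at 5.01 against 15.2 CPM (-1.60). Genes of modulated SMCs were split too, with 4 higher and 5 lower of 11 (2 and 6). Postn (periostin) was at 192 against 881 CPM (-2.20, -2.26 to -2.14) and the lectin gene Lgals3 at 11.5 against 44.9 CPM (-1.96), while Sox9 (2.93), Klf4 (0.82), fibronectin (Fn1, 0.59) and Thbs2 (0.54) were higher.

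Hedgehog genes leaned upward and Notch genes downward. Of 8 measured hedgehog genes 7 were higher and 0 lower (6 and 0 relative to the median gene), with a median of 0.997: beside Hhip the co-receptors Gas1 at 146 against 43.0 CPM (1.76) and Cdon (1.14), the transcription factor Gli2 at 13.96 against 6.04 CPM (1.21) and the receptor and target gene Ptch1 at 16.3 against 9.01 CPM (0.86). Gli1, the other common target gene, was under the filter at 7.64 against 5.17 CPM. Of 8 measured Notch genes 1 was higher and 4 lower (0 and 5), with a median of -0.59, and the target genes Hey2 at 14.2 against 47.5 CPM (-1.74) and Heyl at 33.2 against 83.7 CPM (-1.34) were lowest. Under the filter, the target gene Hey1 at 9.03 against 3.07 CPM (1.56, 1.22 to 1.89) and the ligand Dll1 at 5.17 against 0.476 CPM (3.44) were on the other side. Of 11 RGS and mural genes 4 were higher and 3 lower (3 and 4), and of 6 retinoid genes 1 was higher and 2 lower (1 and 3).

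Of 19 Wnt genes 6 were higher and 6 lower (4 and 8 relative to the median gene). The secreted antagonists Frzb at 158 against 21.3 CPM (2.89, 2.79 to 2.98), Sfrp4 at 25.7 against 5.68 CPM (2.18) and Sfrp2 at 1317 against 293 CPM (2.17) and the ligand Wnt5a at 20.8 against 6.88 CPM (1.595) were higher. The ligand Wnt16 and the antagonist Wif1 at 81.1 against 181 CPM (-1.16) were lower, so ligands and antagonists stood on both sides.

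Of 22 BMP genes 8 were higher and 2 lower (6 and 2 relative to the median gene). Beside Grem1 these were the ligand Gdf10 at 40.6 against 3.07 CPM (3.73), the receptor Bmpr1b at 122 against 48.3 CPM (1.34) and the target gene Id3 at 981 against 422 CPM (1.22). The lower ones were the ligands Bmp2 at 5.67 against 17.8 CPM (-1.65) and Bmp3 at 15.5 against 42.2 CPM (-1.44). Of 18 TGF-beta genes 5 were higher and 3 lower (3 and 3).

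Genes associated with the ductus arteriosus did not share a direction. Of 17 measured, 8 were higher and 4 lower (6 and 7 relative to the median gene), with a median of -0.28. Ednra, the endothelin A receptor, was at 47.9 against 3.28 CPM (3.87, 3.65 to 4.08), Kcnj8, a pore subunit of ATP-sensitive potassium channels, at 84.98 against 31.3 CPM (1.44) and the cyclic GMP phosphodiesterase Pde5a at 351 against 152 CPM (1.21). Gucy1a1, a subunit of the nitric oxide receptor, was at 165 against 370 CPM (-1.17) and the hypoxia-inducible factor Epas1 at 43.9 against 78.8 CPM (-0.84).

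Of 10 measured vasoactive receptors 5 were higher and 2 lower (5 and 3 relative to the median gene). Adrb1, a beta-adrenergic receptor, was at 19.8 against 2.92 CPM (2.76), Calcrl, part of the receptor for calcitonin gene-related peptide, at 37.6 against 9.01 CPM (2.06) and the serotonin receptor Htr1b at 21.9 against 52.5 CPM (-1.26). Of 24 potassium, calcium and TRP channel genes 11 were higher and 5 lower (9 and 7), led by the potassium channel Kcnk3 at 31.3 against 3.05 CPM (3.36). The mechanosensitive channels Piezo1 (2.37) and Piezo2 (1.65) and the calcium channel Cacna1d at 111 against 39.8 CPM (1.48) were also higher.

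Of 19 genes of axon guidance 9 were higher and 2 lower (7 and 3 relative to the median gene). Sema3c, a semaphorin that guides neural crest into the outflow tract, was at 366 against 99.4 CPM (1.88), its receptor Nrp1 at 78.0 against 27.2 CPM (1.52), the netrin receptor Unc5b at 29.4 against 8.71 CPM (1.76) and Unc5c at 19.95 against 56.8 CPM (-1.51). Of 17 growth factor genes 4 were higher and 4 lower (3 and 5), among them midkine (Mdk) at 112 against 9.51 CPM (3.55) and Bdnf at 238 against 73.5 CPM (1.69). Of 22 immediate-early and dissociation genes 5 were higher and 7 lower (4 and 10), with Nr4a2 at 44.8 against 8.66 CPM (2.37), Atf3 at 59.3 against 147 CPM (-1.31) and Hspa1a at 313 against 661 CPM (-1.08). The part of cell handling in these values was not tested.

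**Figure D5:**
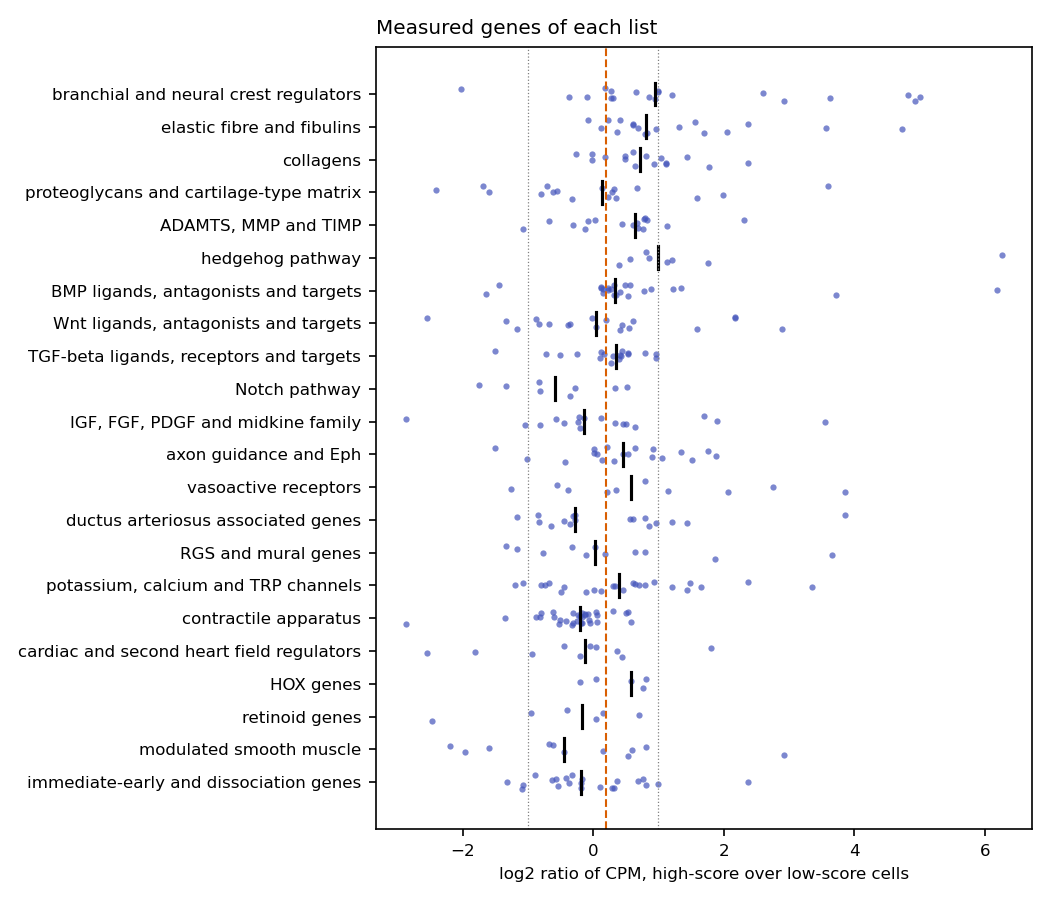
Log2 ratio, high-score over low-score cells, of each measured gene (points) in the lists, with each list's median as a bar, the median of all measured genes, 0.19, as a dashed line and 2-fold as dotted lines. Elastic fibre genes (median 0.81) and collagens (0.72) lie mostly right of that line and contractile genes (-0.20) mostly left of it.

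Hhip was held by few of the high-score cells. At a depth of 8000 UMIs per cell its variance was 11.9 times its mean among high-score cells, against 2.22 for Grem1, 3.65 for Coch and 1.17 for Hhip itself among low-score cells. This measure also depends on the mean, which among high-score cells was 0.569 UMIs for Hhip, 0.215 for Grem1 and 0.363 for Coch. The low-score value cannot show how Hhip was spread there, as 0.442% of those cells had a Hhip UMI. The 65 high-score cells with at least 3 Hhip UMIs held 82.4% of the Hhip UMIs of all 879, and 19 cells with at least 10 held 54.9%, while 708 had none. The median score was 10 in the 65 cells and 9 in the 708, and the median depth 12066 and 12712 UMIs. Of the cells with UMIs of either Xist or a Y-linked gene alone, 24 of the 65 were female and 26 male, and 116 of the 708 were female and 451 male.

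This split was made after the values were seen and uses Hhip itself, so its values are a description. Of 8393 measured genes, 171 (2.04%) passed 2-fold upward and 86 (1.02%) downward in the 65 cells against the 708. Gli1, a target gene of hedgehog signalling, stood at 30.2 against 5.64 CPM (log2 ratio 2.42, 1.69 to 3.12), and Ptch1 at 29.1 against 15.4 CPM (0.92, 0.25 to 1.53). Chrdl2, a secreted BMP antagonist, was at 61.7 against 5.53 CPM (3.48), Igf1 at 43.0 against 4.93 CPM (3.13) and Pi16, a marker of adventitial fibroblasts, at 112 against 18.2 CPM (2.62). The low-score cells had Chrdl2 at 0.244, Igf1 at 4.12 and Pi16 at 1.14 CPM. For Chrdl2 and Pi16 the 708 cells without a Hhip UMI were thus also above the low-score level. Cytl1, a secreted protein gene, had 26 UMIs in the 65 cells and 1 in the 708. Ednra was at 127 against 38.6 CPM (1.71) and the potassium channel genes Kcnj8 at 237 against 66.8 CPM (1.83) and Abcc9 at 354 against 155 CPM (1.19). Acta2 was at 8529 against 13708 CPM (-0.68) and Myh11 at 2099 against 3475 CPM (-0.73), while Eln was at 3804 against 3881 CPM (-0.03, -0.08 to 0.02). Grem1 was at 15.1 against 27.1 CPM (-0.84, -1.77 to -0.04).

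The high-score cells were then left out of the comparison of the arch with the ascending aorta. Over all kept eGFP cells, 21 of 7748 measured genes (0.271%) passed 2-fold upward and 5 downward in Arch-GFP than in Asc-GFP. With the high-score cells left out, 11 of 7702 genes (0.143%) were higher and 3 lower. These are not all drawn from the genes counted over all cells. Bdh1, Lgals3, Lrrc32 and Nkx6-1 among the higher and Sfrp1 among the lower genes were not in those counts. With the low-score cells alone, 12 of 7692 genes (0.156%) were higher, 13 of the 21 genes were under 2-fold, and 17 of the 21 were also at least 2-fold higher in high-score than in low-score cells. The log2 ratio of Rgs5 was 1.79 over all cells, 0.75 without high-score cells and 0.38 in the low-score cells. These values were 1.21, 0.09 and -0.08 for Gpc3 and 1.65, 0.55 and 0.04 for the glutamate receptor gene Gria3. For the phosphodiesterase Pde4d they were 1.02, 0.21 and 0.05. The low-score cells also leave out the cells with scores of 2 to 4. For genes high in the high-score cells, a lower ratio without those cells follows from leaving them out. The ephrin receptor Epha3 (3.07 over all cells and 2.92 in low-score cells), Igfbp5 (1.57 and 1.78) and Frzb (2.69 and 1.76) stayed past 2-fold. Igfbp5 was lower, not higher, in the high-score cells. Fbln1 also stayed past 2-fold (4.27 over all cells, 2.11 in low-score cells and 2.66 without high-score cells), as did Tshz2 without high-score cells (1.54, and 0.94 in low-score cells). Fbln1 leaves the counts of 11 and 12, and Tshz2 that of 11, because their mean level is then under the filter of 10 CPM. These values share the Asc-GFP library and part of the Arch-GFP cells.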

How the data were processed

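Each of the 4 groups was 1 library of sorted aortic cells, made with 10x Genomics 3′ chemistry per the labels' protocols. The authors deposited raw UMI counts from Cell Ranger 7.0.0, per the file headers. The submitters' processing notes name mm10 and Seurat 4.3, whose output was not used here. Arch-GFP held 10506 barcodes and 104691850 UMIs. The labels state 4710 cells after the submitters' filter, and the filter used here kept 8031. The handling of strand and introns is not stated there. Of 32287 features, 32158 were matched to GENCODE M21 by identifier for positions.

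UMIs were summed over the cells of a set and scaled to CPM. Ratios have exact conditional binomial intervals, levels exact Poisson intervals and shares exact binomial (Clopper-Pearson) intervals, all at 95%. No test was run, because each group was 1 library and cells are not replicates. Ratios were checked on simulated counts. The members and lists were chosen with earlier results of these data known. Named genes were the 15 highest and 10 lowest by the bound of the interval nearest 0 (rule, mitochondrial, ribosomal protein, reporter and sex-linked genes left out), the marker genes, up to 4 per list with the largest ratios and the 10 most correlated with the score. Some genes that this rule names are not reported here. Further list members named in the text were chosen after their values were seen. No doublet caller was run, so doublets remain, and free RNA was not removed. Python 3.11.15, numpy 2.4.6, scipy 1.17.1 and scikit-learn 1.9.0 were used. Alternatives for the bound, the contrast, depth, scaling, filter, quality and sex of cells are given in the closing section.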

Additional observations from a re-analysis of the deposited data

How the results depend on the processing

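The counts of genes past 2-fold, 304 upward and 119 downward as reported, kept within 1.5 times under the other bounds of the score, contrasts, depth weighting, thinned and partial rules, mitochondrial filter and choices of cells by sex or depth, where they ranged from 270 to 447 and from 88 to 177. Scaling by the median of gene ratios moved the lower count to 180 (237 higher). With a minimum of 50 CPM the counts were 82 and 49 of 3072 genes, and with no minimum 2799 and 669 of 19407. Left out after seeing the data, cells with Xist and Y-linked UMIs gave 326 and 131 without them, and cells whose barcodes another library shares 303 and 119. The share of cells meeting the rule in Arch-GFP was 10.95%, and it was 9.773% after thinning to 10000 UMIs in a second draw, 14.31% at a score of at least 3 and 4.943% at 10. In Asc-GFP it was 0.1092%, 0.04213%, 0.3901% and 0% in the same order, in Asc-RFP 0% after thinning and at 10, and in Root 0% at 10. Of the named genes with a ratio of at least 0.5 in size, Ankrd1 alone changed sign in these settings, to a log2 ratio of 0.64 in cells with Xist and no Y-linked UMI; the cause was not tested. Near 0, Hoxb2 crossed from -0.20 to 0.02 in the same cells, and the log2 ratio of Pcna from 0.17 to -0.02 under the median scaling. Of 107 named genes, 26 stayed inside their counting interval in cells with Xist and no Y-linked UMI, the fewest in any setting. Among the 25 genes named first, the rule on Dlx5, Dlx6 and Tfap2b alone moved 12 by over 1.5 times, most for Hhip (4.85 against 6.27), and cells with Xist alone moved 13, most for Des (-4.55 against -2.87). Bex4, -2.83 as reported, was at -4.45 without the deepest 5% of cells and -4.12 on thinned counts, and Flt1 at -4.22 with a score of at least 10. No paired analysis was possible because each group was 1 library; for the same reason no replicate could be left out.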
